A study of Solanum lycopersicum with 2 samples.

Results

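Light signalling genes were examined in young primary leaves of tomato (Solanum lycopersicum) seedlings that overexpressed SlRBZ and in wild-type leaves. The members were all loci of the deposited expression table whose gene symbol begins with PHY followed by a letter from A to F, or with CRY, COP1, DDB1, DET1, HY5, ELIP or PIF. This gave 12 of 17803 gene loci: the phytochromes PHYA, PHYB1, PHYB2, PHYE and PHYF, the cryptochrome family genes CRY1B and CRYD, the repressor-side genes COP1, DDB1 and DET1, and HY5 and ELIP on the output side. No symbol began with PIF. All 12 symbols occur in the RefSeq gene table of tomato, CRYD as another name of CRY3, and each member locus carried a single gene.

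The wild-type library (CK-1) and the library of the overexpressing plants (OV-5-1) each stood alone, so that 1 library per genotype was compared, and differences could not be checked on replicates. The submitters describe evaluation in duplicate, but the table has a single column per genotype, and whether a column is one library, a pool or a mean is not stated. Every FPKM and counting interval here is read as that of a single library. Both came from leaves at the seedling stage. The labels do not give the promoter of the transgene, the light conditions or the time of harvest, nor whether leaves were pooled. OV-5-1 is the only overexpressing library here, so an effect of SlRBZ and a property of that single line or library cannot be told apart. SlRBZ itself was not analysed here.

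Plants read light through receptors that absorb at different wavelengths. Phytochromes respond to red and far-red light, and cryptochromes to blue light. In darkness the ubiquitin ligase COP1, and complexes that contain DDB1 and DET1, hold back light responses by promoting the breakdown of transcription factors such as HY5, a bZIP protein that promotes greening. Light acting through the receptors lifts this repression, and loss of DDB1 or DET1 function gives the high pigment mutants of tomato. These are statements of background, and the values that follow concern transcripts only.

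Values are FPKM as deposited (fragments per kilobase and per mega fragments), a level per length, so that genes can be set beside each other. Paired values give wild type first and the overexpressor second. Each difference subtracts log2(FPKM + 1) of wild type from that of the overexpressor. A difference of 1 or more in size, which is 2-fold on this scale, was called higher or lower, and the scale understates the change of low genes. The steps of the lowest values gave scaling totals of 7.46 M fragments in wild type and 14.2 M in the overexpressor, M standing for mega. Intervals are 95% and exact, taken from Poisson counts for levels and conditional on the summed counts for ratios and shares. They assume an effective transcript length of 1 kb, since the table gives no transcript lengths, and cover counting error only. A longer effective length would narrow them, so whether an interval includes no change depends on this assumption. In wild type the leaf label was met by the abundance of Rubisco small subunit transcripts, with RBCS-3B and RBCS-2A at ranks 6 and 7 of the gene loci. Ranks were not taken in the overexpressor, where both genes read lower as deposited.

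As deposited, 3 of the 12 members were at least 2-fold lower in the overexpressor (PHYB2, PHYE and COP1), 1 was higher (ELIP) and 8 were neither. This is 25.0% lower and 8.33% higher, beside 15.0% lower and 11.6% higher among the 17631 gene loci that averaged 1 FPKM or more. Among the 944 of these loci that carry a symbol, the shares were 19.0% and 14.3%. With 12 loci, 1 locus more or fewer moves a share by 8.33 percentage points, so the counts do not set the members apart from other named genes. The median difference of the members was −0.25, against −0.05 for all gene loci and −0.10 for those with a symbol. All 12 members had a mean of at least 5 FPKM, so none depended on the filter on low values.

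**Figure D1:**
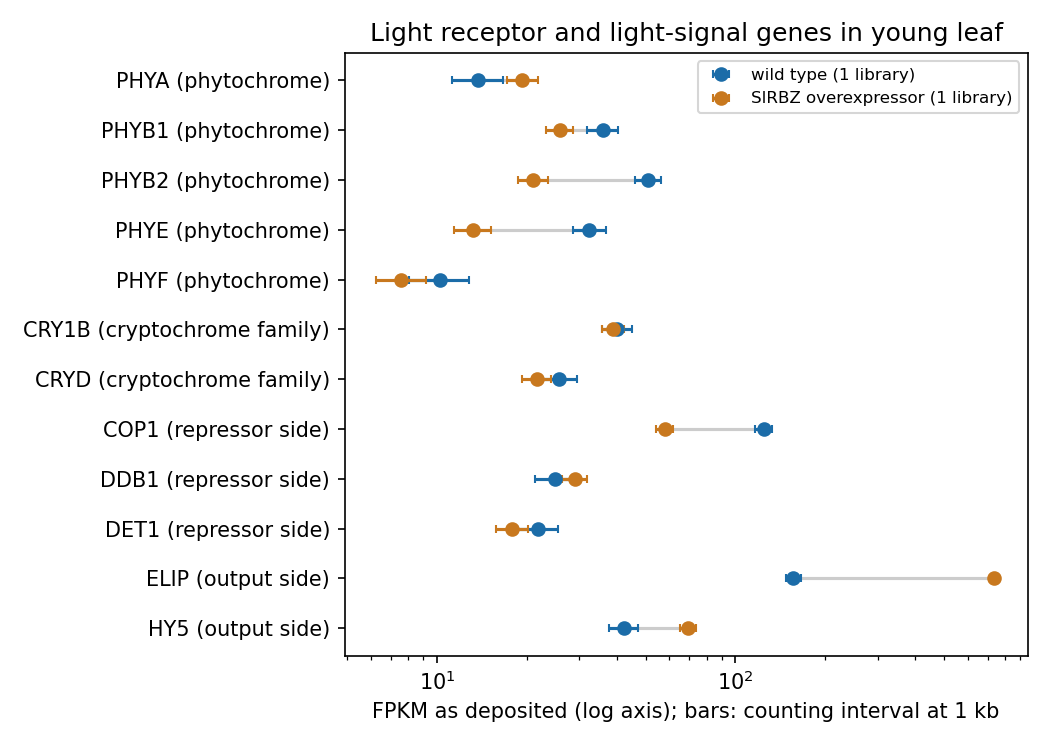
FPKM of each member (log axis) in the wild-type library (blue) and the overexpressor library (orange), grouped by role, with bars for the 95% counting interval at an effective length of 1 kb. PHYB2, PHYE and COP1 lie to the left in the overexpressor (20.9, 13.2 and 57.9 FPKM), ELIP lies far to the right at 736 FPKM, and the 2 values of CRY1B nearly coincide (40.1 and 38.8).

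As deposited, the phytochromes were lower in sum but not throughout. At equal sums over all loci, those without a gene included, the direction of the sum flipped. PHYB2, a type B receptor of red light (chromosome 5, 62648223 to 62653411, minus strand), read 51.1 FPKM in wild type (interval 46.1 to 56.5) and 20.9 in the overexpressor (18.6 to 23.5). On the log2(FPKM + 1) scale this was 2.37-fold lower, and 89.2% of gene loci had a higher difference. In whole leaves, fewer cells that hold a transcript and less of it per cell cannot be told apart. PHYE, the phytochrome E gene, whose product acts beside type B phytochromes in Arabidopsis (chromosome 2, 35323448 to 35328928, plus strand), read 32.4 FPKM (28.4 to 36.7) and 13.2 (11.4 to 15.2), 2.35-fold lower on the same scale. Its call was lost at equal upper quartiles of the gene loci (−0.997) and at equal sums without the 100 most abundant gene loci (−0.61), and the direction reversed at equal sums over all loci (1.60). The call of PHYB2 was lost at the second of these scalings (−0.61) and reversed at the third (1.62). These 2 genes had nearly the same plain FPKM ratio of overexpressor to wild type, 0.410 for PHYB2 and 0.407 for PHYE.

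PHYB1, the other type B gene (chromosome 1, 61760671 to 61767869, minus strand), read 35.8 and 25.7 FPKM, a difference of −0.46 that was not called. PHYF (chromosome 7, 55934438 to 55945346, plus strand), the least abundant of the family, read 10.2 and 7.59 FPKM. Its ratio interval on the log2 scale, as deposited and at the assumed length, ran from −0.86 to 0.02 and so only just included 0. PHYA, the light-labile receptor known for far-red responses (chromosome 10, 22853105 to 22859472, plus strand), was, as deposited and at equal upper quartiles, the single phytochrome with the higher value in the overexpressor, at 13.8 FPKM (11.2 to 16.7) and 19.3 (17.1 to 21.7). Its difference of 0.46 was under the limit for a call. At equal sums without the 100 most abundant gene loci PHYB1 (0.18) and PHYF (0.22) were higher too, and at equal sums over all loci so were all 5.

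The make-up of the phytochrome transcripts therefore differed between the 2 libraries, and this comparison does not depend on how the libraries are scaled to each other. PHYA made up 9.60% of the summed phytochrome FPKM in wild type (interval 7.93 to 11.6) and 22.3% in the overexpressor (19.96 to 24.7). PHYB2 went the other way, from 35.6% (32.7 to 38.6) to 24.1% (21.7 to 26.6), and PHYE from 22.6% to 15.2%. PHYB1 held 25.01% and 29.7%, and PHYF 7.14% and 8.75%. The leading phytochrome was thus PHYB2 in wild type and PHYB1 in the overexpressor. The ratio of PHYB2 to PHYA FPKM went from 3.71 to 1.08 and was thus 3.43-fold lower (2.58 to 4.53). PHYE relative to PHYA went from 2.35 to 0.683, 3.45-fold lower (2.53 to 4.67), and PHYB2 relative to PHYB1 from 1.43 to 0.814, 1.75-fold lower (1.40 to 2.19). The summed phytochrome FPKM was 143 in wild type and 86.8 in the overexpressor. The latter became 104 at equal upper quartiles, 138 at equal sums without the 100 most abundant gene loci and 659 at equal sums over all loci.

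**Figure D2:**
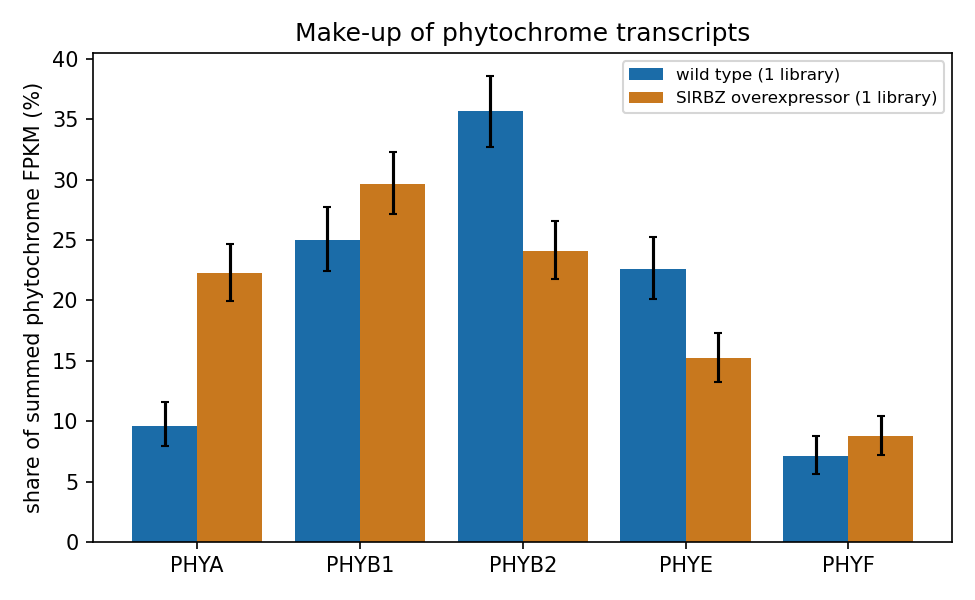
Share of each phytochrome gene in the summed FPKM of all 5 (percent, axis from 0) in the wild-type library (blue) and the overexpressor library (orange), with 95% exact binomial intervals at an effective length of 1 kb. PHYA stands at 9.60% and 22.3%, and PHYB2 at 35.6% and 24.1%, with intervals that do not overlap for either gene.

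Differences of the cryptochrome family genes were small as deposited. CRY1B, a blue light receptor gene (chromosome 12, 48466109 to 48469227, plus strand), read 40.1 FPKM in wild type (35.7 to 44.9) and 38.8 in the overexpressor (35.7 to 42.2), a difference of −0.04. CRYD, a cryptochrome of the DASH type, a branch related to DNA photolyases (chromosome 8, 55534829 to 55540366, minus strand), read 25.6 and 21.6 FPKM, a difference of −0.24. Under the assumed length and as deposited, the log2 ratio intervals of both genes included 0. They ran from −0.25 to 0.16 for CRY1B and from −0.51 to 0.02 for CRYD. Equal sums without the 100 most abundant gene loci put CRY1B at 0.61 and CRYD at 0.405, and equal sums over all loci at 2.85 and 2.63. Their ratio to each other was 1.57 in wild type and 1.80 in the overexpressor, and the interval of the change, 0.909 to 1.46, included 1. Against PHYB2, CRY1B had a ratio of 0.784 in the wild-type library and of 1.85 in the other, 2.37-fold higher (1.91 to 2.92).

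On the repressor side COP1 differed from the DDB1 and DET1 genes. COP1, the ubiquitin ligase gene (chromosome 12, 576229 to 587430, minus strand), read 125 FPKM in wild type (117 to 133) and 57.9 in the overexpressor (53.97 to 61.9), 2.13-fold lower on the log2(FPKM + 1) scale. Its difference of −1.09 lay just past the limit for a call, which was lost at equal upper quartiles (−0.84) and without the 100 most abundant gene loci (−0.44), and it reversed at equal sums over all loci (1.81). DDB1 encodes a protein that links substrate receptors to CUL4 ubiquitin ligases (chromosome 2, 14069797 to 14090192, minus strand) and read 24.8 and 28.9 FPKM, a difference of 0.22. DET1, whose product binds DDB1 (chromosome 1, 46495644 to 46516174, plus strand), read 21.8 and 17.9 FPKM, a difference of −0.27. Under the assumed length and as deposited, the log2 ratio intervals of both just included 0. They ran from −0.03 to 0.48 for DDB1 and from −0.58 to 0.01 for DET1. Equal sums without the 100 most abundant gene loci put DDB1 at 0.86 and DET1 at 0.36. Within a library, COP1 exceeded DDB1 5.03-fold in wild type and 1.998-fold in the overexpressor, a ratio 2.51-fold lower (2.06 to 3.09). COP1 relative to DET1 went from 5.71 to 3.24, 1.77-fold lower (1.41 to 2.21).

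On the output side HY5 and ELIP had the higher value in the overexpressor. A wider list of positive regulators and outputs, given further on, held 7 loci. As deposited, 5 of them were called lower and 2 higher, beside 15.0% and 11.6% of all gene loci. All but ELI3 are identifiers recalled from the annotation, so their roles could not be checked here. HY5 (chromosome 8, 43956466 to 43959939, minus strand) read 42.3 FPKM (37.8 to 47.3) and 69.5 (65.2 to 74.0). Its difference of 0.70 was under the limit for a call, and 17.4% of gene loci lay above it. The interval of its log2 ratio ran from 0.53 to 0.90. ELIP, an early light-induced protein gene whose product belongs to the chlorophyll-binding protein superfamily and accumulates in greening or strongly lit leaves (chromosome 9, 63807170 to 63809227, minus strand), read 156 FPKM (147 to 166) and 736 (722 to 750). On the log2(FPKM + 1) scale this was 4.68-fold higher, and 2.74% of gene loci had a larger difference.

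COP1 and HY5 changed places in the order of levels. COP1 was 2.94 times HY5 in wild type and 0.832 times HY5 in the overexpressor, a ratio 3.54-fold lower (3.01 to 4.15). ELIP relative to HY5 went from 3.69 to 10.6, 2.87-fold higher (2.49 to 3.31). In wild type the order ran from ELIP and COP1 through PHYB2, HY5, CRY1B, PHYB1, PHYE, CRYD, DDB1 and DET1 to PHYA and PHYF. From PHYB2 down to DET1 each gene's interval overlapped that of the next, as did those of PHYA and PHYF. In the overexpressor the order was ELIP, HY5, COP1, CRY1B, DDB1, PHYB1, CRYD, PHYB2, PHYA, DET1, PHYE and PHYF, and neighbours overlapped from DDB1 down to DET1 only. PHYB2 thus moved from the third place to a run of genes between 17.9 and 28.9 FPKM.

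**Figure D3:**
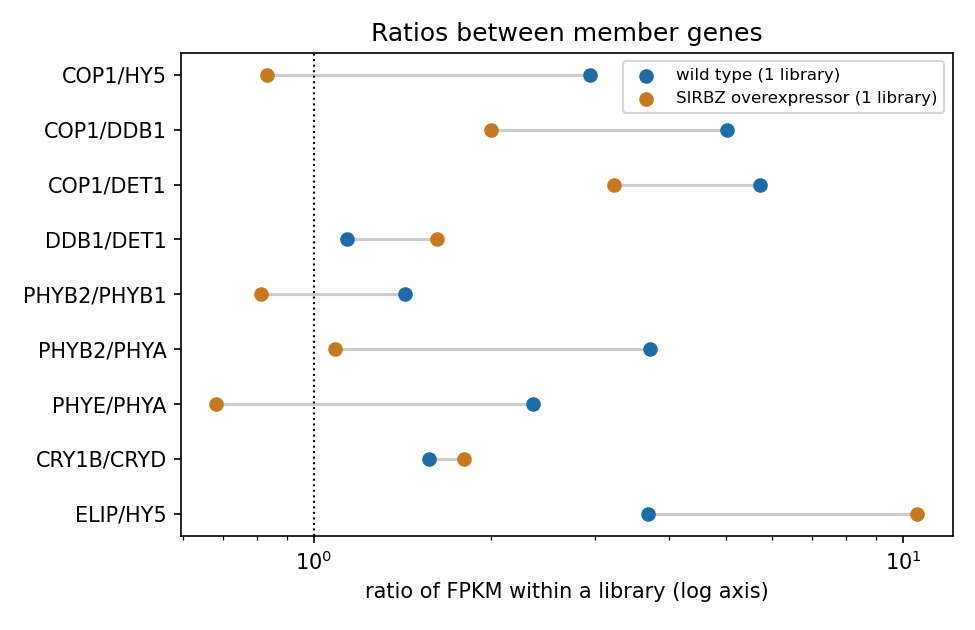
Ratio of FPKM between pairs of members within the wild-type library (blue) and within the overexpressor library (orange), on a log axis with a dotted line at 1. The COP1 to HY5 ratio crosses the line, from 2.94 to 0.832, as do PHYB2 to PHYB1 and PHYE to PHYA, while CRY1B to CRYD stays at 1.57 and 1.80.

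The size of single differences followed the scaling of the libraries, and for the members lower as deposited so did the direction. Multiplying the overexpressor to equal upper quartiles moved the median of all gene loci from −0.05 to 0.18. Equal sums without the 100 most abundant gene loci moved it to 0.57, and equal sums over all loci to 2.76. The factors were 1.19, 1.59 and 7.59. Only the last was taken over loci with and without a gene, and the part of the gene-free loci in it was not tested. Under these scalings PHYB2 differed by −1.004, −0.61 and 1.62, PHYE by −0.997, −0.61 and 1.60, and COP1 by −0.84, −0.44 and 1.81. ELIP, HY5, PHYA and DDB1 were positive throughout, with ELIP at 2.48, 2.89 and 5.15. All the other members were negative as deposited and positive at equal sums over all loci. Each factor raised the overexpressor values, so a difference positive as deposited stayed positive by construction. At equal sums over all loci every member was thus called higher, with PHYB2, PHYE and COP1 reversed, as were 95.0% of gene loci, with 0.352% lower. At equal upper quartiles 15.7% of gene loci were called higher and 11.0% lower, with 1 member each way, and without the 100 most abundant loci 28.1% and 6.52%, with 3 members higher and 0 lower. Each scaling multiplies all overexpressor values by 1 factor, so the distance of a member from the median of all gene loci is fixed by construction apart from the added 1, and says nothing of stability. As deposited, this distance was −1.20 for PHYB2, −1.19 for PHYE, −1.05 for COP1, 2.28 for ELIP, 0.75 for HY5 and 0.51 for PHYA.

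**Figure D4:**
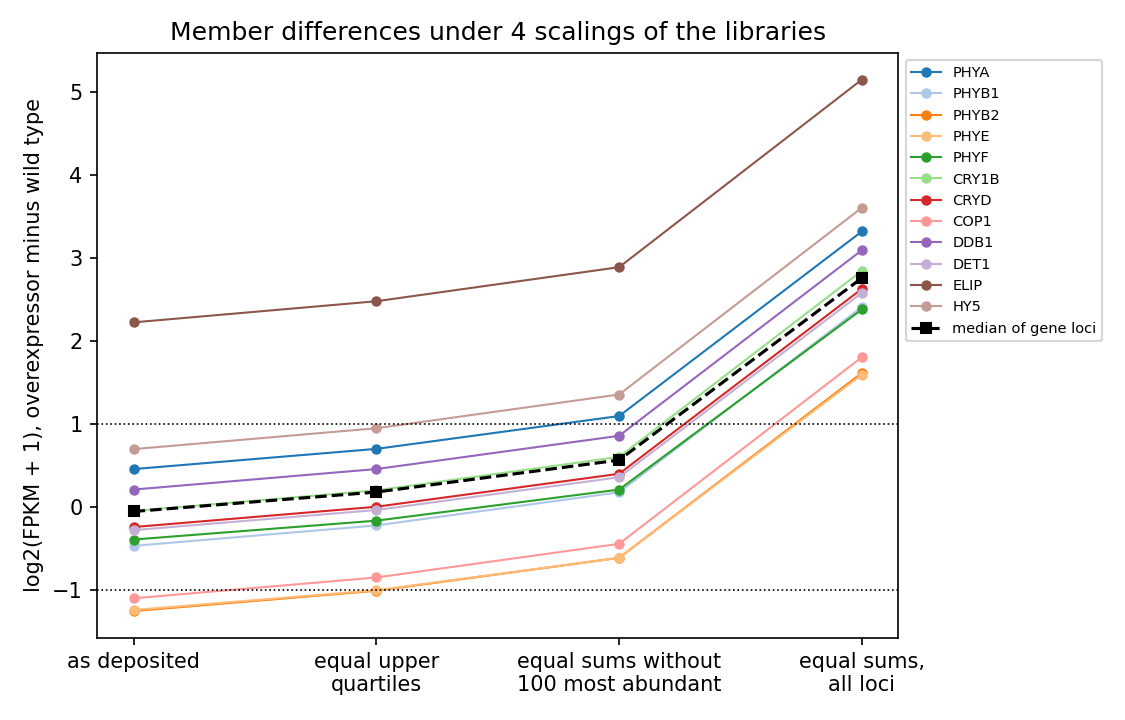
Difference of each member in log2(FPKM + 1), overexpressor minus wild type, as deposited and under 3 other scalings of the libraries, with the median of all gene loci (black squares) and dotted lines at the limits for a call. All lines move up with the median, since 1 factor multiplies every overexpressor value, and PHYB2, PHYE and COP1 go from the lower limit as deposited to 1.62, 1.60 and 1.81 at equal sums over all loci.

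**Figure D5:**
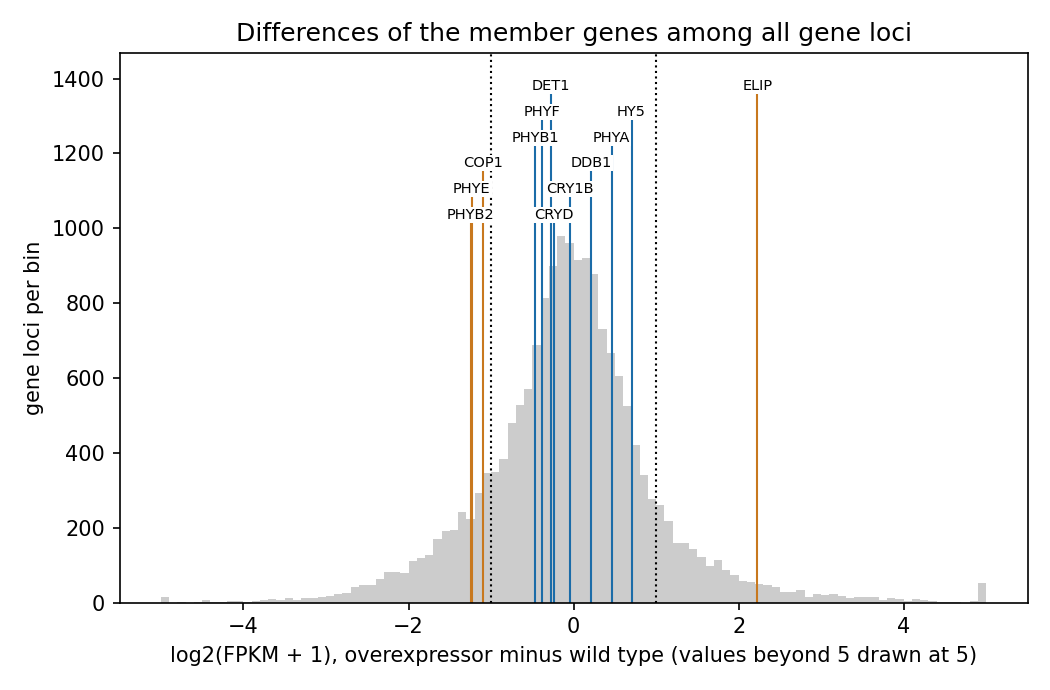
Number of gene loci per bin of the difference in log2(FPKM + 1), overexpressor minus wild type, as deposited (grey), with a vertical line for each member and dotted lines at the limits for a call. PHYB2, PHYE and COP1 (orange) lie just past the lower limit, ELIP (orange) far past the upper one at 2.23, and the other 8 members (blue) between the limits.

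Other genes of light perception and repression with a symbol were read from a list that also held identifiers. HO1 and HO2, heme oxygenases of the opening step towards the phytochrome chromophore, read 219 and 121 FPKM and 24.9 and 19.5 FPKM. AUREA, the phytochromobilin synthase of the next step, read 36.0 and 21.6 FPKM. The differences of these 3 chromophore genes were −0.85, −0.33 and −0.71, none of them called. PHOT2, a phototropin gene of blue light perception, read 721 and 394 FPKM, a difference of −0.87. CUL4, the cullin that carries DDB1, and CSN5, a subunit of the COP9 signalosome that acts on cullins, read 27.6 and 37.2 FPKM and 16.0 and 22.5 FPKM. Their differences of 0.42 and 0.47 had, as deposited, the sign of DDB1 and not that of COP1 or DET1. The ratio intervals of DDB1 and DET1 included 0, so those signs are not settled. Of the 10 loci listed on the repressor side, CUL4 and CSN5 among them, 1 was called lower and 0 higher. Among all gene loci 15.0% were lower and 11.6% higher. At equal sums without the 100 most abundant gene loci CUL4 (1.07) and CSN5 (1.11) passed the limit as higher, PHOT2 (−0.21), HO1 (−0.19) and AUREA (−0.07) came near 0 and HO2 changed sign (0.30), and at equal sums over all loci the values of all 6 genes were positive. ELI3 entered the list by its letters and is known as a pathogen elicitor response gene in parsley, not a light gene. It read 15.0 and 103 FPKM.

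Of the 38 identifiers in that list, recalled from the tomato annotation, 19 were in the table as such. Neither the table nor the RefSeq table names them, so no gene name is given here. A gene with a symbol is listed by that symbol, so an identifier not found need not be absent from the data. Solyc05g018620.2 and Solyc07g017750.2 lay in loci that join 3 and 2 genes, neither of them called. Of these 19 loci 7 were at least 2-fold lower, 1 was higher and 11 were neither, with a median of −0.57 (0.08 at equal sums without the 100 most abundant gene loci and 2.33 over all loci), beside 15.0% lower and 11.6% higher among all gene loci. Solyc04g071990.2 read 21.7 and 3.52 FPKM and Solyc07g053630.2 read 167 and 57.3 FPKM, both lower, whereas Solyc04g081020.2 was higher at 0.621 and 3.91 FPKM. Over all 26 loci of the list, 7 were lower and 2 higher, one of the latter being ELI3. The 7 loci that had been listed as positive regulators and outputs, ELI3 among them, held 5 of the lower and both of the higher ones.

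Families that light induces in leaves did not share the direction of HY5 and ELIP as one. As deposited, all 3 RBCS loci and 13 of 14 CAB loci were lower, beside 15.0% of all gene loci. These encode the Rubisco small subunit and light-harvesting proteins. Their medians of −2.62 and −2.55 flipped to 0.30 and 0.37 at equal sums over all loci and stayed below 0 under the other scalings. Of these, RBCS-3B and RBCS-2A read 121997 and 18085 FPKM and 51548 and 8383 FPKM, while CAB4 and CAB9 read 10471 and 2281 FPKM and 6616 and 996 FPKM. The 2 most abundant CAB1B loci, near-identical copies that can share reads, read 9033 and 1503 FPKM and 6224 and 1661 FPKM. The CAB count also holds other CAB1B loci, so its loci may not be separate readings. As deposited, the chalcone synthases of flavonoid synthesis were higher, CHS2 at 27.7 and 65.9 FPKM (called) and CHS1 at 24.5 and 45.7 FPKM (not called). Under the other scalings they stayed higher by construction, since each factor raised the overexpressor values.

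The surroundings of the members were read from the same table, with coordinates on the table's own genome build, which is not given in the sources used here. Loci that overlap a member were left out of its neighbours. Of the 24 nearest remaining gene loci on either side of the members, as deposited, 5 were at least 2-fold lower and 5 higher. Their median was −0.37, beside 15.0% lower, 11.6% higher and a median of −0.05 over all gene loci. The counts were 5 and 5 at equal upper quartiles, 3 lower and 5 higher without the 100 most abundant gene loci, and 0 lower and 21 higher at equal sums over all loci. Next to COP1, on its own strand and 3.93 kb away, an identifier-only locus read 68.3 and 12.5 FPKM. ELIP had a neighbour on its own strand, 1.16 kb away, that read 5.95 and 0.935 FPKM, the opposite direction. This neighbour is itself one of the identifiers listed as positive regulators and outputs. The nearest gene locus on the other side of ELIP that did not overlap it, on the plus strand and 32.5 kb away, read 9.89 and 45.1 FPKM, the direction of ELIP. ELIP also overlapped a plus-strand gene locus at its end (63797368 to 63807908), which read 11.0 and 12.3 FPKM. Whether counting used the strand is not stated, and how reads in the overlap were assigned was not tested.

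Short loci without a gene lay inside 2 members, and reads in them may have been counted apart from the gene. Inside COP1, the loci at 582937 to 583233 and 586121 to 586251 read 27.3 and 7.15 FPKM and 2958 and 157 FPKM, both lower in the overexpressor. The second is shorter than the length offset of 199 bp found in the low values, so its FPKM has no scale set by that offset. Inside PHYB1, a locus at 61765236 to 61765407, also below that offset, read 141 and 101 FPKM, and another at 61764858 to 61765166 was listed at 0 in both libraries. The part of these loci in the COP1 and PHYB1 values was not tested.

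Among single-gene loci with a symbol, the nearest to each member were found by Euclidean distance over log2(FPKM + 1) in the 2 libraries, which says only that both levels were alike. PHYB2 was nearest to MST1 (52.7 and 21.1 FPKM, distance 0.05), then to ODC and LIN8. PHYE was nearest to FK (35.8 and 13.8 FPKM, distance 0.15), then to IMP1 and FEY, and COP1 to GLX1 (128 and 54.9 FPKM, distance 0.08), then to CEL8 and PAR2. ELIP had no close companion, its nearest being TSW12 (156 and 547 FPKM) at a distance of 0.43, followed by a locus the table calls UNKNOWN and by LTPG2. HY5 was nearest to SAP4 (46.3 and 72.7 FPKM, distance 0.14), SAP6 and LEXET2, and PHYA to RNALX, SPE4 and TDR6. PHYB1 lay beside LEME2, COI1 and MPK9, PHYF beside SLPSOL2 and CIP7, and CRY1B beside WAP, ARF8-1 and SLPCLV1. CRYD lay beside TOMQ`B, MCA1 and PP2AC1, DDB1 beside EOL1, MSI1 and THM27, and DET1 beside FTA, LETH3 and DRM5.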

How the data were processed

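RNA from young primary leaves was sequenced. The table holds 1 column per genotype, read here as 1 library, although the submitters describe duplicates, and pooling or averaging is not stated. The values are FPKM per locus as made by the authors, per the file headers. TopHat, a spliced aligner, is named in the submitters' processing notes. The sources used here give neither its version nor the counting tool, annotation or genome build. Columns were tied to samples by title, and 0 columns stayed untied. Python 3.11.15, numpy 2.4.6, pandas 2.3.3, scipy 1.17.1 and matplotlib 3.10.9 were used.

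Differences are log2(FPKM + 1), overexpressor minus wild type, over gene loci that averaged 1 FPKM or more. FPKM are not counts, and with 1 library per genotype no test was made. Depth was found from loci without a gene, without a strand and at least 300 bp long, as the total and length offset that brought low values nearest to whole fragments. Of 1739 wild-type values 87.0% lay within 0.05 of a whole fragment, and of 1908 overexpressor values 85.7%. The recovery of depth and the 2-fold calls were tested on simulated data. Scalings multiplied the overexpressor before 1 was added. Equal sums over all loci took in loci without a gene, whereas the other scalings used gene loci only. The members, the lists and the rule for named genes (every member, listed genes with a symbol, the 3 nearest loci per member, the most abundant CAB, RBCS and CHS loci) were chosen with earlier results of these data known. Alternatives covered the pseudocount, the filter, the scaling and loci that join several genes. Sequences of the members were not used here. One of the nearest loci is not reported here.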

Additional observations from a re-analysis of the deposited data

How the results depend on the processing

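With 1 library per genotype the size of biological variation is unknown, and no other setting replaces a second library. No paired analysis was possible because each genotype has a single library. Pseudocounts of 0.1 and 0.5 each gave 3 members lower and 1 higher. No filter on low values, a filter of 5 FPKM and leaving out loci that join several genes gave the same counts. For the members this was fixed by construction, as all 12 averaged at least 5 FPKM and each locus carried a single gene. At the filter of 5 FPKM, 1 locus of the wider list was higher and 5 were lower. Among the gene loci that passed it, 1249 were higher and 2458 lower, and their shares were not taken. The scaling mattered most. At equal upper quartiles 1 member, PHYB2, was lower. At equal sums without the 100 most abundant gene loci 3 members were higher (ELIP, HY5 and PHYA) and 0 lower, their median was 0.38, the wider list had 5 higher and 2 lower, and all gene loci 4946 higher and 1149 lower. At equal sums over all loci all 12 members were higher and 0 lower, their median was 2.61, the wider list had 23 higher and 0 lower, and all gene loci 16745 higher and 62 lower. There PHYB2 (1.62), PHYE (1.60) and COP1 (1.81) were reversed. These shifts follow from the factor itself, which multiplies every overexpressor value alike.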
